A study of Mus musculus with 7 samples.

Results

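The non-cardiomyocyte cells of the developing mouse heart were compared between the CD1 and C57BL/6 strains at the same stage and in the same heart zone. A cell was a member if its deposited final type was neither atrial CM, ventricular CM nor blood and if it was not marked for exclusion. A stage and zone entered the comparison when both strains had at least 20 such cells. This left 54 matched pairs of samples at 16 stages, with 8365 CD1 cells and 13399 C57BL/6 cells. These 21764 members stood among 76801 cells in the whole series. The unit was a share, the percentage of a sample's non-myocytes that belonged to a type, beside 4 measures of the cells of each type, which were UMIs, detected genes, mitochondrial percent and ribosomal protein percent.

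Both strains were wild type, CD1 being an outbred and C57BL/6 an inbred stock. Hearts of 1 stage were pooled, cut into atria (LA and RA) and ventricles (LV and RV, for left and right), with the septum and atrioventricular canal kept with the LV, dissociated, marked with MULTI-seq barcodes, which are sample-specific DNA tags held in the cell membrane by a lipid, and profiled in droplets. CD1 was collected in 3 experiments, of E18 and P1, of E9.5 to P3 and of P2 to P9, and C57BL/6 in 2 experiments, of E10.5 to P4 and of P5 to P9. No experiment held both strains, so a difference of strain and a difference of experiment cannot be told apart anywhere in these data. The study sequenced the libraries of CD1 P2 to P9 and of C57BL/6 E10.5 to P4 on NovaSeq and the others on HiSeq X. The targeted cell number also differed between experiments. The CD1 samples labelled E18 were matched with the C57BL/6 samples of E18.5. Matched zones numbered 1 at E10.5, 2 at E11.5 and E14.5, 3 at E12.5, E13.5 and P5, and 4 at the other stages.

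The non-myocytes of the heart carry out its lining, wrapping, scaffolding and defence. Endocardial ECs line the chambers and give rise to valve mesenchyme, vascular ECs line the coronary vessels, and SMCs and pericytes wrap those vessels. The epicardium covers the surface and sends cells inward that become fibroblasts and mural cells, while tissue macrophages settle in the embryonic heart and neutrophils, dendritic cells and lymphocytes are carried by the blood. The study named these groups from genes such as *Npr3* for endocardial ECs, *Fabp4* for vascular ECs, *Wt1* and *Tbx18* for the epicardium, *Postn* for fibroblast-like cells, *Myh11* for SMCs, *Pdgfrb* for pericytes, *C1qa* for macrophages and *S100a9* for neutrophils. The tables used here hold 1 line per cell and no gene values, so the names rest on the deposited annotation and were not checked against those markers.

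The samples behind the shares were small. A matched CD1 sample held 33 to 586 non-myocytes with a median of 125.5, and a matched C57BL/6 sample held 20 to 3204 with a median of 157. Fewer than 50 cells stood behind 3 CD1 and 8 C57BL/6 samples. Cell barcodes recurred at a low rate, with 14 shared over the 21 pairs of CD1 wells, 23 over the 10 pairs of C57BL/6 wells and 46 over the 35 pairs of wells across strains. The doublet score reached 1.52 among the kept cells of the CD1 E9.5 to P3 experiment, where 171 cells, or 2.99%, lay above the highest C57BL/6 score of 0.720. Each strain was annotated on its own. The study's code set aside clusters of endocardial ECs and fibroblast-like cells in both strains, and clusters of vascular ECs, epicardial and immune cells in CD1 alone. In the tables C57BL/6 alone carried cells marked for exclusion, 79 embryonic epicardial cells with a median of 3446 UMIs and 14.8% mitochondrial UMIs against 10298 UMIs and 4.21% in the kept C57BL/6 epicardial cells. First-round labels that began with "unsure" were carried by 504 CD1 cells (5.16%) and 932 C57BL/6 cells (6.15%).

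The question was how far the cell make-up of a heart zone differs between strains. A composition distance was taken as the percentage of cells that would have to change type to turn the make-up of 1 sample into that of the other. Over the 54 matched pairs it had a mean of 21.4% and a median of 19.7%, and it ran from 6.92% to 59.6%. Averaged over zones it was 23.6% ± 11.0 (SD, n = 16 stages). The highest values were 59.6% at E10.5 and 34.7% at E11.5, and without those stages the mean was 20.2%. Fibroblast-like cells contributed 26.0% of the distance on average, endocardial ECs 22.0% and vascular ECs 14.1%.

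Distances of like size lay within a strain. Neighbouring stages of the same zone had a median distance of 18.6% in CD1 and 18.4% in C57BL/6, with 44 pairs of samples each. CD1 hearts of P1 and P2 were measured in more than 1 experiment, and the 8 samples present in both lay 20.4% apart on average, from 13.0% to 29.8%. The CD1 samples of the same stages and zones, with the cells of both experiments pooled, lay 21.0% from C57BL/6. The same sample in separate wells of 1 experiment differed by a median of 18% in CD1 and 14.1% in C57BL/6, where the smaller of the compared sets had a median of 27 and 51 cells, against 100 cells in the comparison of strains and 77 in that of the CD1 repeats. These sets share samples and differ in cell number, so the medians are given side by side without a test. For 11 of 54 CD1 samples the C57BL/6 sample of the same zone with the smallest distance was that of the same stage, and for 27 it was within 1 step of it. The nearest stage was later in 18 samples and earlier in 25.

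**Figure D1:**
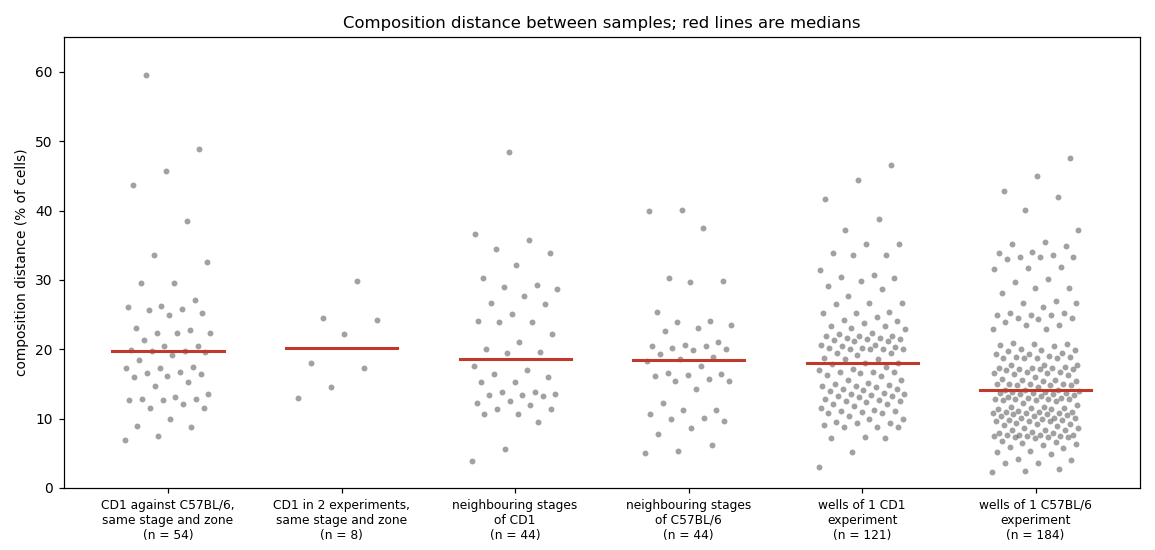
Composition distance in percent of cells between matched strains, neighbouring stages of a strain, CD1 samples measured in 2 experiments, and wells of 1 experiment, with each point a pair of samples and each line their median. The matched strains have a median of 19.7% and the neighbouring stages medians of 18.6% and 18.4%, and the point at 59.6% is the LV at E10.5.

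The shares of 9 types found in both strains were tested with an exact two-sided sign-flip permutation test over the 16 stages, with Benjamini-Hochberg adjustment. A single type passed, the neutrophils, which were fewer in CD1, and this was 11.1% of the types tested. Epicardial cells were more frequent in CD1 at 14 of 16 stages and fibroblast-like cells less frequent at 12 of 16, and both missed the threshold after adjustment. Shares sum to 100% in a sample, so more cells of 1 type and fewer of the others cannot be told apart. Fibroblast-like cells were the most frequent type in both strains, with a mean of 33.6% ± 9.79 in CD1 and 41.7% ± 8.95 in C57BL/6 (SD, n = 16 stages), followed by endocardial ECs with 23.8% ± 9.02 and 21.9% ± 6.47. Nothing in the labels makes the stages of a strain repeats of 1 condition, so the p-values measure the spread between stages.

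**Figure D2:**
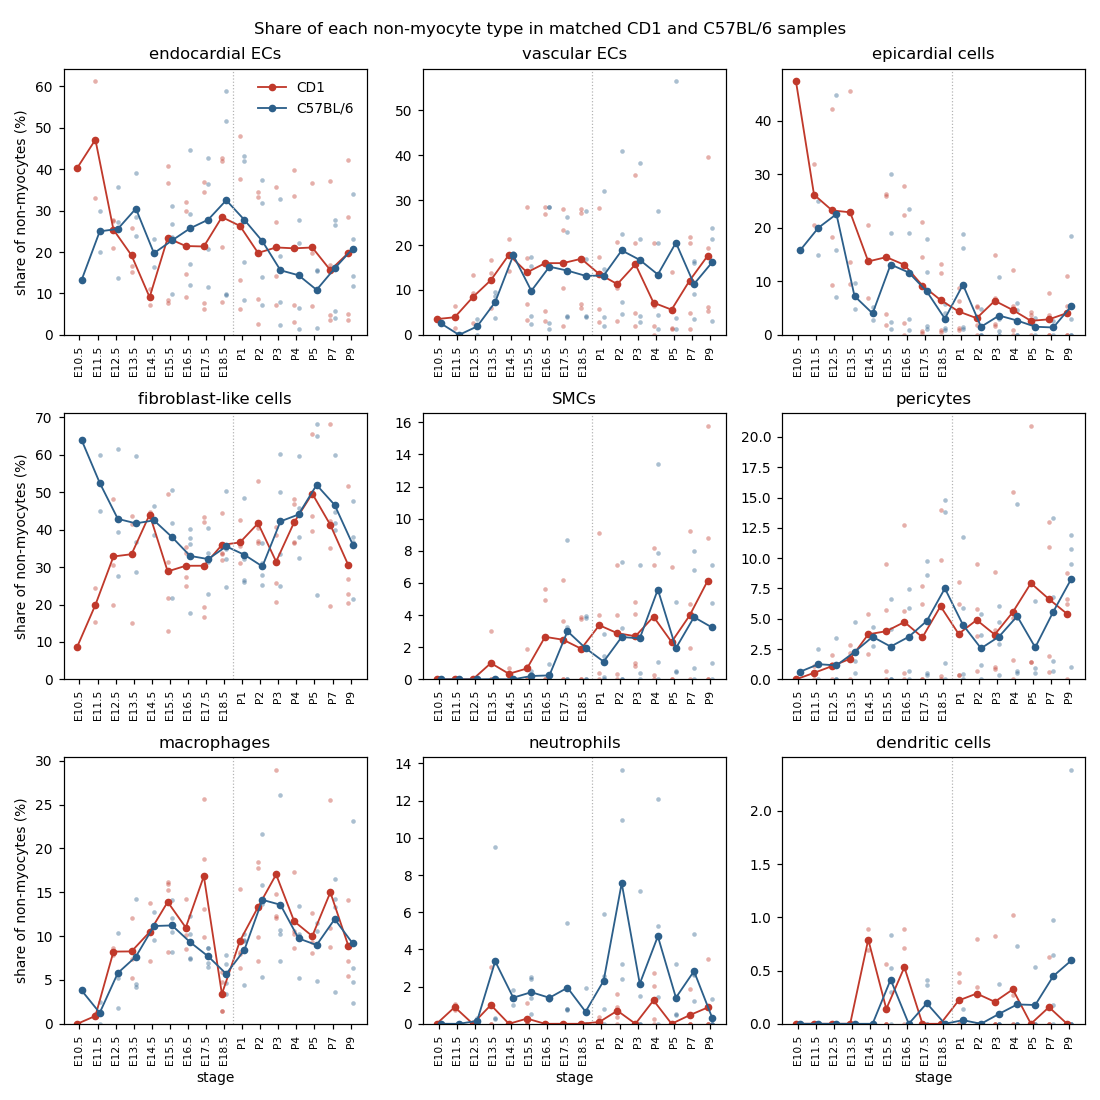
Share of each type among non-myocytes in percent at each stage, with small points for samples, joined points for the mean of the matched zones, and a dotted line at birth. Neutrophils lie lower in CD1 at 13 of 16 stages, and fibroblast-like and endocardial shares lie farthest apart at E10.5 and E11.5.

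**Figure D3:**
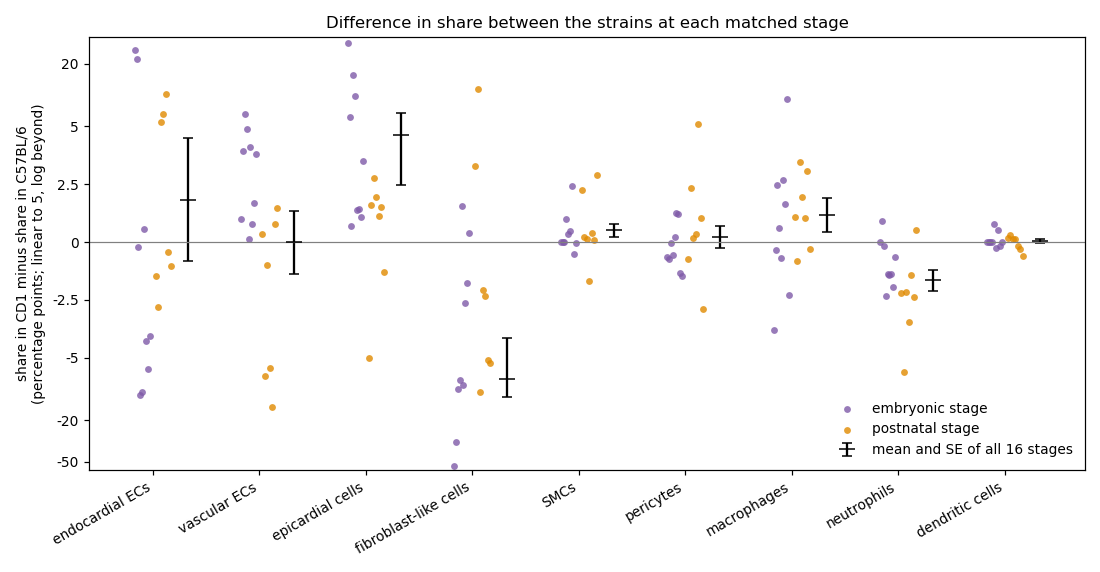
CD1 minus C57BL/6 share in percentage points for each type, with 1 point per stage and the mean with its SE, on an axis that is linear to 5 points and logarithmic beyond. The neutrophil points lie between -6.86 and 0.897, and the fibroblast-like points reach -55.2 at E10.5.

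Neutrophils are short-lived phagocytes that the bone marrow and, before birth, the fetal liver supply through the blood. Their share in CD1 ran from 0% to 1.26% with a median of 0.0481%, and in C57BL/6 from 0% to 7.56% with a median of 1.55%. The mean was 0.349% ± 0.449 in CD1 and 1.99% ± 1.97 in C57BL/6 (SD, n = 16 stages). The difference of -1.65 percentage points was lower in CD1 at 13 stages and higher at 2, with an exact permutation p of 0.000916 and an adjusted p of 0.00824. The ranges of the strains overlapped. CD1 was higher at E11.5, with 0.897% against 0%, and at P9, with 0.877% against 0.338%, and neither strain had a neutrophil at E10.5. The C57BL/6 samples of E11.5 held 40 and 20 cells, where a count of 0 allows up to 7.5% and 15%.

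The widest neutrophil gaps were at P2, with 0.704% in CD1 and 7.56% in C57BL/6, and at P4, with 1.26% and 4.70%. Among single C57BL/6 samples the highest share was 13.6% (3 of 22 cells) in the LA at P2, followed by 12.1% (19 of 157) in the LV at P4 and 11.0% (18 of 164) in the LV at P2. By pairs, the CD1 share was lower in 40 of 54, higher in 6, and both were 0 in 8. In the matched samples 21 CD1 cells and 163 C57BL/6 cells were neutrophils, and a neutrophil was found in 13 of 54 CD1 samples and 41 of 54 C57BL/6 samples. Most single samples could not show the difference on their own, since the exact 95% binomial interval of CD1 lay below that of C57BL/6 in 3 pairs. Intervals of this kind cover counting error only. The gap was present in both zones, with -1.84 percentage points in the atria and -2.35 in the ventricles over 13 stages.

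The neutrophil share was lower in CD1 in each pairing of experiments. It differed by -1.78 points between CD1 E9.5 to P3 and C57BL/6 E10.5 to P4, by -1.48 with CD1 E18 and P1, by -5.06 between CD1 P2 to P9 and C57BL/6 E10.5 to P4, and by -1.08 between the latest experiments of both strains. Within CD1, the samples measured in 2 experiments differed in neutrophil share by 0.542 points in mean absolute size, from -0.763 to 1.98. Over all kept non-myocytes, neutrophils were 7 of 5712 cells (0.123%) in CD1 E9.5 to P3, 0 of 1535 in CD1 E18 and P1, which allows a share of up to 0.195%, and 15 of 2517 (0.596%) in CD1 P2 to P9, against 138 of 11696 (1.18%) and 37 of 3460 (1.07%) in the C57BL/6 experiments. With the first experiments alone, over 11 stages, the adjusted p was 0.0527.

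The cells that carry the neutrophil name were not alike in the strains. The 175 C57BL/6 neutrophils had a median of 5436 UMIs, 1927 detected genes and 17.8% ribosomal protein UMIs. The 22 CD1 neutrophils had a median of 3237 UMIs, 1179 genes and 4.50% ribosomal protein UMIs.  In macrophages the ribosomal protein percent was 17.8% in CD1 and 19.0% in C57BL/6. The 23 CD1 natural killer cells had first been labelled as unsure neutrophils, and they held 3.60% ribosomal protein UMIs. When they were counted as neutrophils, a choice made after seeing the data, the CD1 mean was 0.622% and the difference -1.37 points, with CD1 lower at 13 stages and an exact permutation p adjusted to 0.0165. The part of the annotation in the neutrophil difference was not tested beyond this.

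Natural killer, T and B cells, the lymphocytes, were named in CD1 alone. Among 9764 CD1 non-myocytes 45 were T cells, 33 were B cells and 23 were natural killer cells, and C57BL/6 held 0 of 15156 of each. The strains were annotated separately and no C57BL/6 cell carried these names, so this 0 sets no upper limit on C57BL/6 lymphocytes. Lymphocytes made up 0.392% ± 0.303 of CD1 non-myocytes at embryonic stages and 2.57% ± 1.93 at postnatal stages (SD, n = 9 and 7 stages). The labels differ in kind as well as in number. All 45 T cells carried a first-round label of unsure B cells, and their median ribosomal protein percent was 12.8% in the E9.5 to P3 experiment and 38.5% in the P2 to P9 experiment. Whether C57BL/6 hearts lacked lymphocytes or had them under another name was not tested, because no gene values were at hand.

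Macrophages clear debris and make up most of the immune cells of the heart. Their share ran from 0% at E10.5 to 17.0% at P3 in CD1, with a median of 10.2%, and from 1.25% at E11.5 to 14.1% at P2 in C57BL/6, with a median of 9.07%. CD1 was higher at 10 of 16 stages and in 37 of 54 pairs. The mean difference of 1.18 points, 9.90% against 8.72%, had an adjusted p of 0.214 in the permutation test. In C57BL/6, 113 of the macrophages (9.72%) carried the first-round label of unsure immune cells, whereas all CD1 macrophages were labelled immune from the start. When all cells with an unsure label were left out, a choice made after seeing the data, macrophages were 10.2% in CD1 and 7.87% in C57BL/6, higher in CD1 at 12 of 16 stages with an adjusted p of 0.0286. The largest single gap was at E17.5, with 16.8% against 7.69%. Dendritic cells, which present antigen, numbered 15 and 14 in the matched samples, and their shares of 0.166% and 0.133% had an adjusted p of 0.795.

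Epicardial cells were on average more frequent and fibroblast-like cells less frequent in CD1, and neither difference passed the threshold. Both had the same sign at E14.5, E18.5, P2 and P9. The epicardial share ran from 2.63% to 47.4% in CD1 with a median of 7.85%, and from 1.38% to 22.6% in C57BL/6 with a median of 6.31%. The mean was 12.8% against 8.19%, a difference of 4.61 points ± 8.54 (SD, n = 16 stages), with a permutation p of 0.0116 and an adjusted p of 0.0523. CD1 was lower at P1, with 4.37% against 9.37%, and at P9, with 4.07% against 5.38%. All 9 embryonic stages were higher in CD1, by 7.91 points on average, and the 7 postnatal stages differed by 0.379 points. The difference between those sets of stages had an adjusted p of 0.181 in an exact permutation test.

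Fibroblast-like cells, which lay down the matrix of the heart wall and valves, ran from 8.77% to 49.6% in CD1 with a median of 33.1%, and from 30.2% to 63.9% in C57BL/6 with a median of 41.9%. The difference of -8.05 points ± 15.6 (SD, n = 16 stages) had a permutation p of 0.0231 and an adjusted p of 0.0692. The binomial interval of CD1 lay below that of C57BL/6 in 10 pairs and above it in 3. CD1 was higher at P2, with 41.7% against 30.2%, and by less than 4 points at E14.5, E18.5 and P1. Left-out samples decided both calls, since epicardial cells passed the threshold without stage P1, P2 or P9 (adjusted p of 0.00275, 0.0487 and 0.0357), and fibroblast-like cells passed without P1 or P2 (0.0482 and 0.00989). Epicardial cells also passed without C57BL/6 well B6L1 or CD1 wells E18P1, a10k, a5k1, a5k2 or a5k3 (adjusted p from 0.0364 to 0.0478 in the permutation test), and fibroblast-like cells without E18P1 (0.0461).

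The earliest stages stood apart. In the LV at E10.5, 5 of 57 CD1 cells (8.77%) and 101 of 158 C57BL/6 cells (63.9%) were fibroblast-like, while 27 of 57 (47.4%) and 25 of 158 (15.8%) were epicardial. At E11.5 the fibroblast-like share was 19.9% in CD1 and 52.5% in C57BL/6. Counted together, epicardial and fibroblast-like cells were 56.1% of the CD1 and 79.7% of the C57BL/6 cells at E10.5. Over all stages the sum was 46.4% ± 7.22 in CD1 and 49.8% ± 12.7 in C57BL/6, with CD1 higher at 4 stages and lower at 12 (SD, n = 16).

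The names of these early cells were uncertain in the first round. Of the 27 CD1 epicardial cells at E10.5, 26 (96.3%) had first been labelled as unsure valve cells, and none of the C57BL/6 epicardial cells at any stage had an unsure label. Among CD1 fibroblast-like cells 3 of 5 were unsure at E10.5 and 30 of 44 at E11.5, against 14 of 101 and 11 of 33 in C57BL/6. Without unsure labels the epicardial difference was 0.889 points, 9.59% against 8.70%, with an adjusted p of 0.752, and the fibroblast-like difference was -7.22 points with an adjusted p of 0.329.

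The unsure cells of the strains had different profiles. In C57BL/6, 802 fibroblast-like cells (11.6%) were unsure, and the 603 embryonic ones had a median of 3023 UMIs and 15.5% mitochondrial UMIs, against 10084 UMIs and 3.88% in all embryonic C57BL/6 fibroblast-like cells. In CD1, 204 fibroblast-like cells (6.13%) were unsure valve cells, and the 159 embryonic ones had a median of 7514 UMIs and 5.03% mitochondrial UMIs, against 11132 UMIs and 4.02%. The 75 embryonic CD1 unsure valve epicardial cells had a median of 25942 UMIs, against 10194 in all embryonic CD1 epicardial cells.

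**Figure D4:**
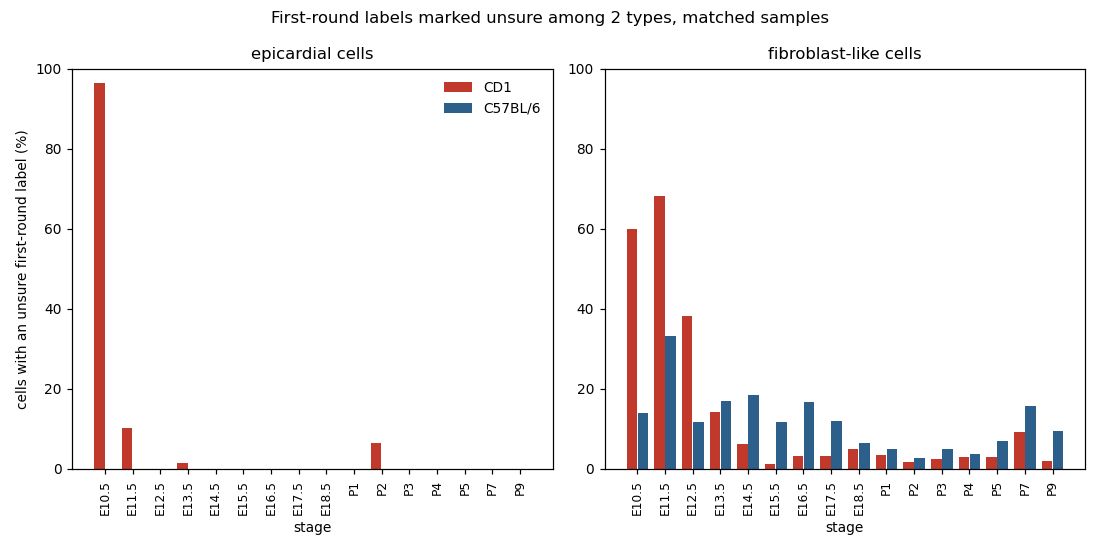
Percent of epicardial and fibroblast-like cells with an unsure first-round label at each stage in CD1 and C57BL/6. In CD1 the label covers 96.3% of the epicardial cells at E10.5 and 68.2% of the fibroblast-like cells at E11.5, and in C57BL/6 it covers no epicardial cell and up to 33.3% of the fibroblast-like cells.

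Endocardial ECs, the lining of the chambers, had no difference that held over the stages. Their share ran from 9.09% at E14.5 to 47.1% at E11.5 in CD1, with a median of 21.2%, and from 10.9% at P5 to 32.5% at E18.5 in C57BL/6, with a median of 22.7%. CD1 was higher at 6 stages and lower at 10, and the mean difference of 1.83 points had an adjusted p of 0.762 in the permutation test. The largest gaps were 40.4% against 13.3% at E10.5 and 47.1% against 25% at E11.5, both higher in CD1, while E13.5 had 19.2% against 30.5%. Of the CD1 endocardial ECs, 125 (5.06%) were unsure valve cells, and none of the C57BL/6 ones were unsure.

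Vascular ECs, the lining of the coronary vessels, had a mean strain difference of opposite sign at embryonic and at postnatal stages. The postnatal stages came in part from other experiments, so stage and experiment cannot be fully told apart in this change. The mean share of vascular ECs over all stages was 12.0% in both strains, and the difference of -0.0158 points had an adjusted p of 0.991. At the 9 embryonic stages CD1 was higher at 9 of 9, with 12.1% against 9.09%, a difference of 2.98 points ± 2.17 (SD). At the 7 postnatal stages CD1 was higher at 3, with 11.9% against 15.7%, a difference of -3.86 points ± 6.02 (SD). The change between embryonic and postnatal stages was 6.84 points, with an exact permutation p of 0.00166 over 11440 regroupings of the stages and an adjusted p of 0.0149, and vascular ECs were the only 1 of 9 types (11.1%) past the threshold in this comparison.

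The embryonic vascular gap was widest at E12.5, with 8.39% in CD1 and 1.87% in C57BL/6, followed by E13.5, with 12.2% and 7.29%. Vascular ECs were 3.92% of the CD1 and 0% of the C57BL/6 non-myocytes at E11.5. That 0% rests on 40 C57BL/6 cells in the LV and 20 in the RV, where a count of 0 allows up to 7.5% and 15%. The postnatal gap was carried by P2, with 11.3% and 18.8%, P4, with 7.17% and 13.4%, and P5, with 5.61% and 20.5%. At P5 the LV held 6 of 43 CD1 cells (14.0%) and 35 of 62 C57BL/6 cells (56.5%). P7 and P9 were higher in CD1, by 0.795 and 1.48 points. Within CD1, the repeat samples of P1 and P2 differed in vascular share by 5.13 points in mean absolute size, from -12.3 to 8.43. The call was lost with the first experiments alone (5.88 points, adjusted p of 0.0545 in the permutation test), without E10.5 and E11.5 (6.99 points, 0.0629), without the unsure labels (7.52 points, 0.0519), and without C57BL/6 well B6L3 (8.09 points, 0.0637), CD1 well P9CD1 (5.60 points, 0.0614) or CD1 well a10k (5.75 points, 0.132).

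The vessel-wrapping cells were few. SMCs, the contractile wall of arteries, were 2.14% ± 1.75 of the cells in CD1 and 1.64% ± 1.73 in C57BL/6 (SD, n = 16 stages), from 0% at E10.5 to E12.5 in both strains to 6.15% at P9 in CD1 and 5.59% at P4 in C57BL/6. CD1 was higher at 10 stages and lower at 3, with an adjusted p of 0.214. At E16.5 the share was 2.65% in CD1 and 0.245% in C57BL/6, and at E17.5 it was 2.46% and 2.99%. Pericytes, which sit on capillaries, were 3.94% ± 2.23 and 3.73% ± 2.17, with CD1 higher at 8 stages and lower at 8 and an adjusted p of 0.795. Their share was 7.93% in CD1 and 2.63% in C57BL/6 at P5, and 5.40% and 8.30% at P9.

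The atria and ventricles were compared at the 13 stages with matched samples of both. Endocardial ECs were 32.8% of atrial and 10.3% of ventricular non-myocytes in CD1, and 30.9% and 13.3% in C57BL/6. Vascular ECs were 4.32% and 21.1% in CD1 and 4.36% and 23.4% in C57BL/6, and pericytes 0.836% and 8.61% in CD1 and 1.58% and 7.10% in C57BL/6. The epicardial share was 16.9% in the atria and 2.69% in the ventricles in CD1, and 12.5% and 2.28% in C57BL/6. The strain difference was compared between the zones of a stage, and 0 of 9 types (0%) passed the exact permutation test over 13 stages, where 0 had an unadjusted p under 0.05 and the smallest adjusted p was 0.533. The strain difference of pericytes was -0.740 points in the atria and 1.51 in the ventricles, with an adjusted p of 0.533.

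The UMI count of a cell tells how much RNA was captured and sequenced, and it was compared as the median per type and sample in samples with at least 10 cells of the type. Vascular ECs had a mean of 13170 UMIs in CD1 and 10517 in C57BL/6, a log2 ratio of 0.33 ± 0.49 (SD, n = 13 stages, higher in CD1 at 11). Fibroblast-like cells had 12284 and 9925, a log2 ratio of 0.28 ± 0.48 (SD, n = 15 stages, higher at 9). Both had an adjusted p of 0.0862, and 0 of 5 types passed the permutation test (0% of types), with an unadjusted p under 0.05 for these 2. Macrophages had 9277 and 9516 UMIs, a log2 ratio of -0.01, which averaged -0.23 at the 7 embryonic stages, where CD1 was higher at 0, and 0.24 at the 6 postnatal stages, where it was higher at 4. Between the first experiments their log2 ratio was -0.28 over 9 stages, with an adjusted p of 0.0195 in the exact permutation test. With CD1 P2 to P9 it was 0.61 and 0.52. The depth moved with the experiment in other types too. The log2 ratio of fibroblast-like cells was -0.07 between the first experiments, 0.46 with CD1 E18 and P1, 1.13 between CD1 P2 to P9 and C57BL/6 E10.5 to P4, and 0.68 between the latest experiments. Within CD1, the fibroblast-like cells of P2 held a log2 ratio of 1.52 more UMIs in the P2 to P9 than in the E9.5 to P3 experiment. These experiments also differed in sequencing platform, whose part was not tested.

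Relative to the other non-myocytes of the same sample, which share its depth, 1 of 5 types (20%) passed. Macrophages held fewer UMIs against the rest in CD1 than in C57BL/6, with a log2 difference of -0.27 ± 0.26 (SD, n = 13 stages), or 0.828 times, lower in CD1 at 12 stages with an adjusted p of 0.00488 in the exact permutation test. The call was lost when cells under 4000 UMIs or above 20% mitochondrial UMIs were left out, where the log2 difference was -0.21 over 13 stages, and without CD1 well a25k, where it was -0.26 over 10 stages (adjusted p of 0.0879 each). The log2 difference was 0.12 for fibroblast-like cells and 0.10 for vascular ECs, and neither passed. Pericytes had enough cells at 4 stages, too few for a test, with a log2 difference of -0.60 against the rest and lower in CD1 at all 4.

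The number of detected genes passed in 2 of 5 types (40%). Vascular ECs had 3522 genes in CD1 and 3054 in C57BL/6, a log2 ratio of 0.22 ± 0.27 (SD, n = 13 stages), and fibroblast-like cells had 3547 and 3081, a log2 ratio of 0.20 ± 0.26 (SD, n = 15 stages). Both had an adjusted p of 0.0243. The UMI counts of these types were higher in CD1 as well, and the cells could not be thinned to a common depth without gene counts. Among cells of 6000 to 12000 UMIs alone, a window chosen after seeing the data, 3 types could be tested. Fibroblast-like cells and endocardial ECs passed there, and vascular ECs had too few stages for a test. Neither call held without CD1 well a5k3 or C57BL/6 well B6L2, B6L4 or B6P9, the vascular call was lost without B6L1 or B6L3, and the fibroblast-like call without E18P1. Without P9CD1 macrophages alone passed, with fewer genes in CD1 (log2 ratio of -0.16, adjusted p of 0.00977 in the permutation test). Without cells under 4000 UMIs or above 20% mitochondrial UMIs neither call held (0.10 and 0.15 on the log2 scale). Between the first experiments the log2 ratio of fibroblast-like cells was -0.0023, and that of macrophages, the only type to pass there, was -0.17.

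The mitochondrial percent was higher in CD1 and passed in 3 of 5 types (60%). Macrophages differed at every stage with enough cells. Their median ran from 3.69% at E18.5 to 4.80% at P7 in CD1 and from 2.83% at E18.5 to 3.90% at P2 in C57BL/6, so the ranges overlapped by little. The means were 4.40% and 3.27%, a difference of 1.13 points ± 0.329 (SD), higher in CD1 at 13 of 13 stages with an adjusted p of 0.00122 in the exact permutation test. Vascular ECs had 4.50% against 3.83%, a difference of 0.671 points ± 0.698 (SD, 11 of 13 stages, adjusted p of 0.0134). Fibroblast-like cells had 3.95% against 3.54%, a difference of 0.410 points ± 0.568 (SD, 12 of 15 stages, adjusted p of 0.0215). The calls of these last 2 types were lost when the 10% of cells with the highest doublet scores were left out (0.489 and 0.363 points, adjusted p of 0.0924 and 0.0848) and with means in place of medians (0.0324 and -0.104 points), where macrophages alone passed. Both were lost without C57BL/6 well B6L2 (0.517 and 0.304 points), CD1 well P9CD1 (0.653 and 0.497) or CD1 well a10k (0.415 and 0.321), the vascular call also between the first experiments (0.714 points, adjusted p of 0.0781), and the fibroblast-like call also without B6L1 (0.286), B6P9 (0.395) or a5k1 (0.376), in the atria (0.514) and ventricles (0.254) taken alone and with 5 or more cells of the type (0.764). Endocardial ECs, with 7.58% against 6.59%, and epicardial cells, with 5.21% against 4.70%, had adjusted p of 0.254 and 0.349. Single stages decided these results too. Endocardial ECs passed without E10.5 (1.53 points, adjusted p of 0.0161 in the permutation test), without B6L4 and with the stricter cell filter. Epicardial cells passed without E18.5 (0.917 points, 0.0244), without B6L3 or E18P1 and between the first experiments.

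The macrophage difference in mitochondrial percent had the same sign in every pairing of experiments, with 1.36, 0.563, 0.479 and 1.25 points. Experiments of CD1 differed by as much. Macrophages of the same stage and zone had 1.93 points less in the E18 and P1 experiment than in the E9.5 to P3 experiment at P1 (1 zone), and 1.07 points less in the P2 to P9 experiment at P2 (2 zones). The strain difference was thus of the same size as the differences between experiments of CD1, which rest on few zones and were not tested. For the other 4 tested types, the CD1 E18 and P1 experiment lay below C57BL/6 E10.5 to P4 in mitochondrial percent.

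The ribosomal protein percent, the share of UMIs from genes of the ribosome, was on average over stages lower in CD1 and passed in 1 of 5 types (20%). Fibroblast-like cells had 18.9% against 20.3%, a difference of -1.34 points ± 1.10 (SD, n = 15 stages), lower in CD1 at 13 stages with an adjusted p of 0.00214. The call was lost in the atria alone (-1.47 points, adjusted p of 0.102), with means in place of medians (-0.829 points, 0.10) and without C57BL/6 well B6L4 (-1.04 points, 0.0760). Their medians ran from 16.1% to 23.4% in CD1 and from 17.5% to 23.3% in C57BL/6. Epicardial cells had the widest gap, 16.2% against 18.8%, with -2.54 points ± 3.02 (SD, n = 11 stages), lower at 8 stages with an adjusted p of 0.0708. Macrophages, endocardial ECs and vascular ECs differed by -1.29, -1.29 and -0.982 points with adjusted p of 0.107, 0.169 and 0.148. The sign moved with the experiment. With CD1 E18 and P1, over 2 stages, the difference was 1.57 points in endocardial ECs, 4.66 in vascular ECs, 2.52 in epicardial cells and 2.34 in macrophages. Fibroblast-like cells were lower in CD1 in each pairing of experiments, by -1.84, -0.640, -1.04 and -1.22 points. Within CD1, fibroblast-like cells had 1.93 points more at P1 in the E18 and P1 experiment and 1.22 points more at P2 in the P2 to P9 experiment than in the E9.5 to P3 experiment.

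**Figure D5:**
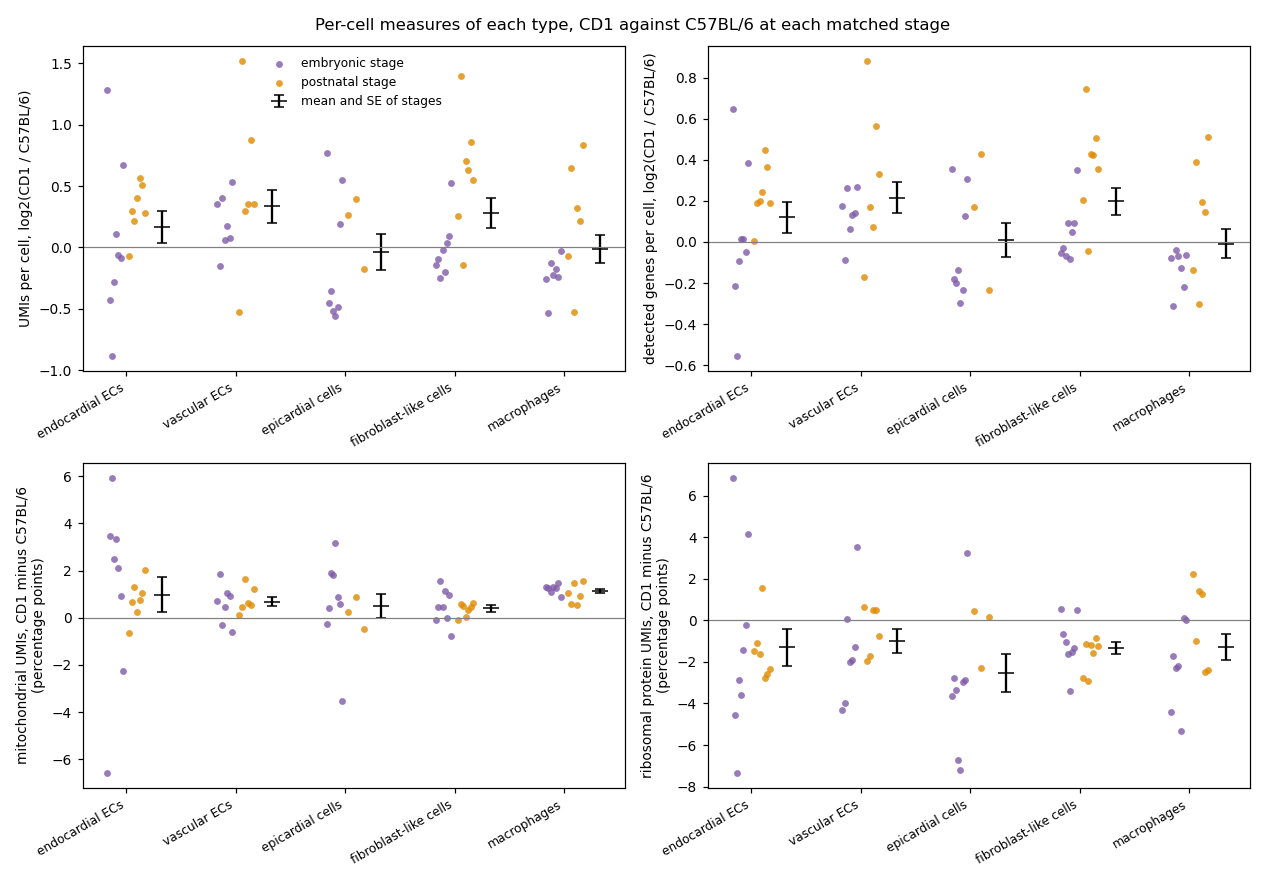
Strain difference in UMIs and detected genes per cell (log2 of CD1 over C57BL/6) and in mitochondrial and ribosomal protein percent (CD1 minus C57BL/6, percentage points) for 5 types, with 1 point per stage and the mean with its SE. Macrophages have a higher mitochondrial percent in CD1 at 13 of 13 stages, and fibroblast-like cells a lower ribosomal protein percent at 13 of 15.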

How the data were processed

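Droplet single cell RNA-seq of MULTI-seq barcoded heart samples was deposited as 1 table per strain with 1 line per cell, 27445 CD1 cells of 72 samples and 25436 C57BL/6 cells of 68. The authors aligned reads with Cell Ranger 3.1.0, assigned cells to samples with deMULTIplex, filtered cells, removed doublets with scds, integrated with Harmony and annotated each strain separately in Seurat. The UMI count and the number of detected genes per cell were deposited by the authors as counts without normalization. The authors also deposited the percent of mitochondrial and of ribosomal protein UMIs and a doublet score, used here unchanged. The other 230 columns were not used.

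Shares were computed per sample, averaged over the matched zones of a stage and compared over stages with exact two-sided sign-flip permutation tests, since cells are not replicates and zones come from the same hearts. For embryonic against postnatal stages, the stages were regrouped in every way. Per-cell measures used the median of samples with at least 10 cells of a type, on a log2 scale for UMIs and genes, in types with at least 6 stages. Benjamini-Hochberg adjustment ran over the types and the threshold was 0.05. Binomial intervals are exact (Clopper-Pearson) at 95%, and a count of 0 allows 3 counts. On 200 simulated sets of the share test with no effect, 3.5% held a call, and with macrophages doubled macrophages were called in 100%. In the doubled sets 22.1% of single tests over all 9 types, macrophages included, had an unadjusted p under 0.05, against 4.56% with no effect. The simulated spread between stages was a chosen value and was not fitted to the data. The simulated stages varied independently, with no shift shared by the stages of an experiment. The 3.5% therefore does not cover false calls from such a shift. Sequencing depth per sample is not given in the tables, so precision is given by cell numbers.

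The members and lists were chosen with earlier results of these data known. By the rule for names, the types of the deposited annotation were named and no gene was, except as a marker without a value. Alternatives were the filter on cells, doublet score, pooled zones, experiments, minimums, mean for median, a log ratio, and each stage and well left out. Alternatives chosen after seeing the data were the removal of E10.5 and E11.5, of high doublet scores, of unsure labels and of lymphocytes, natural killer cells counted as neutrophils, a window of 6000 to 12000 UMIs, and every alternative for the embryonic against postnatal, atrial against ventricular and relative UMI comparisons. Python 3.11.15 was used with numpy 2.4.6, pandas 2.3.3, scipy 1.17.1 and matplotlib 3.10.9.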

Additional observations from a re-analysis of the deposited data

Results flagged for a closer look

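The strain difference in the share of vascular ECs changed between embryonic and postnatal stages by 6.84 percentage points (exact permutation adjusted p of 0.0149), which is the only difference between sets of stages that passed a test of its own. The call was lost with the first experiments alone, without E10.5 and E11.5, without unsure labels and without some single wells. Stage and experiment cannot be fully told apart in it. Cells outside the matched samples also carried the names of rare immune types. C57BL/6 hearts at P8, which had no CD1 partner, held 10 neutrophils among 1469 non-myocytes, or 0.681% (exact 95% interval 0.327% to 1.25%). CD1 hearts at E9.5 held 3 cells named T cells among 93 non-myocytes, or 3.23% (0.670% to 9.14%), where a count of 0 would allow up to 3.23%. All 45 CD1 cells of that name had first been labelled as unsure B cells, and the name was not checked against genes. Among 24 sets of 4 or 5 wells, none had a well that stood apart by Dixon's criterion, which flags about 1 in 20 sets by chance.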

How the results depend on the processing

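Of 503 values for single types under other settings, 458 kept their side of the threshold, 20 lost a call and 23 gained 1. The other 2 changed sign, with a call in at least 1 of the compared settings. Values that changed sign without a call in either setting were counted among the 458. The neutrophil share stayed past the threshold in all 28 repeats that left out a stage or well and in 16 of 17 others (all but the first experiments only), with adjusted p from 0.0033 to 0.0439 in the repeats. The mitochondrial percent of macrophages passed in all 28 repeats and 13 others.

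The number of types called by share was 1, and it was 0 with the first experiments only, and 2 without unsure labels (macrophages and neutrophils), with blood in the denominator, without lymphocytes and with a minimum of 10 cells (epicardial cells and neutrophils each). For UMI counts it was 0, and 1 with the first experiments only (macrophages), 2 in the ventricles (vascular ECs and fibroblast-like cells) and 1 with 5 or more cells of the type. For detected genes it was 2, and 0 with the stricter filter of 4000 UMIs and 20% mitochondrial UMIs and in the atria. It was 1 with the first experiments only (macrophages, lower in CD1), without unsure labels and with 20 or more cells. With 6000 to 12000 UMIs it was 2 of 3 types tested (endocardial ECs and fibroblast-like cells). For the mitochondrial percent it was 3, and 1 (macrophages) without the 10% highest doublet scores, in the atria and with means in place of medians. It was 4 with the stricter filter and without E10.5 and E11.5 (endocardial ECs added), and 4 without E18 against E18.5 (epicardial cells added). For the ribosomal protein percent it was 1, and 2 with the stricter filter, 3 without E18 against E18.5, 2 with the first experiments only, 0 in the atria, 2 with 6000 to 12000 UMIs, 0 with means and 4 with 5 or more cells. Embryonic against postnatal stages gave 1, and 0 with the first experiments only, without unsure labels and without E10.5 and E11.5. The relative UMI count gave 1, and 0 with the stricter filter and 2 with the first experiments only.

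Among values with a call in either setting, 2 changed sign, both of fibroblast-like cells. These were detected genes with the first experiments only (log2 ratio of -0.0023) and mitochondrial percent with means (-0.104 points). Signs also changed without a call, as in the UMI count with the first experiments only. There the log2 ratio was -0.07 against 0.28 in fibroblast-like cells and -0.11 against 0.17 in endocardial ECs. Leaving out 1 stage or well gave 1 to 3 types by share, 0 to 1 by UMI count, 0 to 3 by detected genes, 1 to 4 by mitochondrial percent, 0 to 3 by ribosomal protein percent, 0 to 2 for embryonic against postnatal stages, 0 to 0 for atria against ventricles and 0 to 2 for the relative UMI count. A UMI call was gained without P1 or E18P1 (vascular ECs), B6L3 (fibroblast-like cells) or P9CD1 (macrophages, lower in CD1). The epicardial ribosomal call was gained without E18.5, P1, B6L1, B6L3, E18P1 or a25k, and the neutrophil embryonic against postnatal call without P9, B6L1 or B6P9. The relative UMI call of macrophages was lost without CD1 well a25k (log2 difference of -0.26 over 10 stages against -0.27 over 13), the fibroblast-like ribosomal call without C57BL/6 well B6L4, the vascular mitochondrial call without B6L2, P9CD1 or a10k, and the fibroblast-like mitochondrial call without these or B6L1, B6P9 or a5k1. The composition distance over 17 other settings had means from 19.1% to 25.4%. The experiments CD1 P2 to P9 and C57BL/6 P5 to P9 alone cover 3 stages, too few for a test. The causes of these changes were not tested. A share from 20 cells has a wide interval.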

Other observations

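Stages without a partner in the other strain were described on their own. At E9.5, CD1 held 93 non-myocytes, of which 70 (75.3%, exact 95% interval 65.2% to 83.6%) were endocardial ECs, 13 (14.0%) epicardial cells and 7 (7.53%) fibroblast-like cells, and macrophages were 0 of 93, which allows a share of up to 3.23%. At P0, the 739 CD1 non-myocytes held 273 endocardial ECs (36.9%), 143 fibroblast-like cells (19.4%), 120 epicardial cells (16.2%), 90 macrophages (12.2%) and 84 vascular ECs (11.4%), with 1 neutrophil. At P8, the 1469 C57BL/6 non-myocytes held 702 fibroblast-like cells (47.8%), 412 endocardial ECs (28.0%), 185 vascular ECs (12.6%) and 89 macrophages (6.06%).

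B cells and T cells of CD1 were concentrated in the P2 to P9 experiment, with 23 cells (0.914%) each, against 3 B cells (0.0525%) and 20 T cells (0.350%) among 5712 non-myocytes of the E9.5 to P3 experiment. In the E18 and P1 experiment 7 B cells (0.456%) and 2 T cells (0.130%) were found among 1535. These experiments cover different stages, so stage and experiment cannot be told apart in this comparison.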
